A study of Mus musculus with 6 samples.

Results

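The 67 genes described here are ion channels and electrolyte transporters measured in the epithelial fraction of mouse colon. They were taken from the 14338 genes of the authors' deposited comparison by symbol: the families Slc4a, Slc8a, Slc9a, Slc12a, Slc26a, Scnn1, Kcn, Clcn, Atp1a and Atp1b, with Cftr. By the transport they carry out, 14 belonged to sodium absorption, 25 to chloride and bicarbonate transport and 25 to potassium channels and their subunits. A further member, Slc8a1, exchanges sodium for calcium. The last 2 matched by name only: Kcnq1ot1 is a noncoding RNA antisense to Kcnq1, and Slc4a1ap is an adaptor protein. The full count table held 163 genes of these families, and the 96 outside the deposited comparison had at most 125 reads over all 6 libraries (median 10.5), so they were not followed. All 67 members passed the filter on low counts.

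Total RNA was sequenced from 3 wild type and 3 Lingo2-/- libraries, from mice aged 2 months kept without a challenge. The cells were those released from the colon by a wash with EDTA and DTT. Lingo2 encodes a membrane protein with leucine-rich repeats and an immunoglobulin domain. The labels give no strain, sex, allele design or littermate status. Nor do they state whether each library was a different animal, so p-values reflect how these 6 libraries vary, and that variation may be technical. Wild type libraries held 25010618 to 28029583 gene reads. The Lingo2-/- libraries held 7060769 to 13047682 and were all shallower. Mitochondrial genes took 45.3% to 48.4% of these reads in wild type and 35.7% to 39.8% in Lingo2-/-. Alignments outside annotated genes made up 18.5% to 22.1% and 23.6% to 27.6% of those in the table. These measures separate the genotypes completely, so any effect of them and the genotype cannot be told apart. Lingo2 itself had 0, 7 and 0 reads in wild type replicates 1 to 3 and 1, 1 and 0 reads in Lingo2-/- replicates 1 to 3, which is too few to check the genotype labels. The general epithelial markers, among them Epcam, Krt8 and Cdh1, summed to 3734 to 4586 CPM (counts per 1000000 reads, with TMM-scaled library sizes) in wild type and 3818 to 4542 CPM in Lingo2-/- libraries, and 0 of 8 passed the test. In bulk RNA, fewer cells of a type and less RNA per cell cannot be told apart, and this holds for every value below.

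The colon absorbs sodium and chloride and secretes potassium and bicarbonate. At the apical membrane of surface cells, sodium enters through Slc9a exchangers, which trade it for protons, and through the epithelial sodium channel, built from Scnn1a, Scnn1b and Scnn1g. The basolateral sodium pump, which includes Atp1b subunits, carries the sodium out. Chloride enters from the lumen in exchange for bicarbonate through Slc26a3. For secretion, Slc12a2 loads chloride into the cell from the blood side, CFTR releases it into the lumen, and basolateral potassium channels such as Kcnq1 with Kcne3, or Kcnn4, keep the membrane voltage that drives it. Bicarbonate enters across the basolateral membrane on sodium bicarbonate cotransporters such as Slc4a4 and Slc4a7.

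A single member passed the test between genotypes. Slc4a7, an electroneutral sodium bicarbonate cotransporter that brings base into the cell, rose in the Lingo2-/- libraries. Here a gene is called when its adjusted p from edgeR's quasi-likelihood test, over all 16757 genes tested, is under 0.05. By that rule 2.57% of all genes tested were called, and 1.04% were called higher, against 1 of the 67 members, or 1.49%. Within the 14338 genes of the deposited comparison the share called by edgeR was 2.86%. DESeq2 called 4.25% of the genes it tested, and 4.71% are called in the authors' deposited table. In each, Slc4a7 was the only member called. Slc4a7 was at 86.5, 81.2 and 86.2 CPM in wild type replicates 1 to 3. In Lingo2-/- replicates 1 to 3 it was at 113, 117 and 138 CPM. All Lingo2-/- libraries were above all wild type libraries, and replicate 3 was the highest. The means were 84.7 ± 2.99 CPM in wild type and 122 ± 13.3 CPM in Lingo2-/- (SD, n = 3), a fold of 1.45 (95% interval 1.25 to 1.68). The log2 fold change was 0.53 ± 0.10 (SE), with an edgeR adjusted p of 0.0148. The authors' deposited table gives 0.54 ± 0.12 on the log2 scale with an adjusted p of 0.000979. The call was lost without Lingo2-/- replicate 2, at an edgeR adjusted p of 0.0581 and a log2 fold change of 0.55, and without Lingo2-/- replicate 3, at 0.0765 and 0.43. It held without each of the other 4 libraries, with edgeR adjusted p of 0.0194 to 0.0493, the highest without wild type replicate 2.

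Slc4a7 (ENSMUSG00000021733) lies on the plus strand of chr14:14702279-14799940 in GRCm38. Slc4a8, of the same family, is a sodium-driven exchanger that imports bicarbonate for chloride, and it was fitted in the other direction. Slc4a8 stood at 8.22, 8.83 and 5.49 CPM in wild type and at 4.61, 4.85 and 4.04 CPM in Lingo2-/- libraries. The groups did not overlap, and wild type replicate 3 lay nearest to the Lingo2-/- values. At a log2 fold change of -0.74 ± 0.21 it had an edgeR adjusted p of 0.0863 and was not called. The RefSeq promoters of these 2 genes (GRCm38.p6, 250 bases before and 50 after the listed start) are shown because the genes had the smallest p-value of a rise and a large fitted fall within 1 family. Capitals mark the CCAAT box (CCAAT or its reverse complement ATTGG) and the TATA box (TATAAA or TTTATA); the boxes do not overlap each other.
Slc4a7, chr14:14718534-14718833, plus strand: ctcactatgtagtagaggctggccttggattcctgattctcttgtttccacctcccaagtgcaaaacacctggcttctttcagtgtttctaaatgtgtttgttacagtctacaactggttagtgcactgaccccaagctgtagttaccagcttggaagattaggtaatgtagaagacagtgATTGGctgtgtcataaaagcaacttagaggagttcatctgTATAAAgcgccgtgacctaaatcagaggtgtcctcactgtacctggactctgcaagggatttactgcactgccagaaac
Slc4a8, chr15:100761497-100761796, plus strand: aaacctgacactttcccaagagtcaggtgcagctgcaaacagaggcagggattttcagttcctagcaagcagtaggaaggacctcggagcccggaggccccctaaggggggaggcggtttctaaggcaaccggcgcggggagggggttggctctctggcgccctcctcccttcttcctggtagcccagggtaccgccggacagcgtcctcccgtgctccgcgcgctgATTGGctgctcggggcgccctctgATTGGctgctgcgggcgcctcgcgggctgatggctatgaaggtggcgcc
The Slc4a7 window held 2 CpG dinucleotides at 45% GC, with 1 CCAAT box and 1 TATA box. The Slc4a8 window held 21 CpG at 65.7% GC, with 2 CCAAT boxes and 0 TATA boxes. Of 32851 promoters of the same length, 37.4% hold a CCAAT box and 13.6% a TATA box, and the median has 7 CpG at 52.7% GC. Of the members, 51 matched the promoter table by symbol. The listed Slc4a7 start lies 16505 bases inside the annotated gene, whose first exon starts upstream, and gene counts do not tell these starts apart.

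The levels of the members were compared per exon length, as reads per kilobase of all annotated exons of the gene on the CPM scale (RPKM). Of the 65 members reported singly, the highest were Atp1b1, the beta subunit of the sodium pump, at 149 ± 29.8 RPKM in wild type (SD, n = 3), and the chloride-bicarbonate exchanger Slc26a3 at 134 ± 51.0 RPKM. Their wild type ranges overlapped, so their order is not settled. Below a gap came Slc26a2, a sulfate transporter, at 52.8 ± 11.0 RPKM, and Slc9a2, a sodium-proton exchanger, at 47.6 ± 7.18 RPKM. The potassium channel subunit Kcne3 (42.6 ± 3.94 RPKM), the main absorptive exchanger Slc9a3 (30.7 ± 8.21 RPKM) and the chloride channel Clcn2 (26.4 ± 4.78 RPKM) came next. Scnn1a and the two-pore potassium channel Kcnk5 followed at 21.2 ± 6.15 and 20.6 ± 3.04 RPKM, and the anion exchanger Slc4a2 closed the first 10 at 18.2 ± 2.11 RPKM. Among neighbours in the first 15, wild type ranges failed to overlap at 2 steps, from Slc26a3 to Slc26a2 and from Slc12a8 to Atp1b3. None of the 10 was called, and 7 of them had a fitted log2 fold change below 0.

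**Figure D1:**
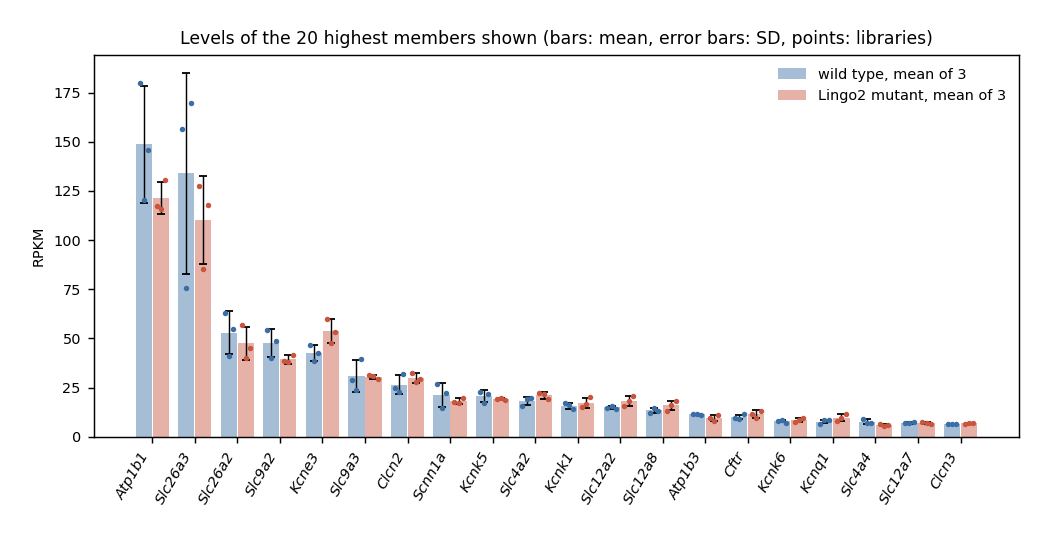
Levels of the 20 highest members reported singly, in RPKM, with bars at the mean of 3 libraries, error bars of 1 SD and a point for each library, for wild type and Lingo2-/-. Atp1b1 (149 and 121 RPKM) and Slc26a3 (134 and 110 RPKM) stand above the others shown in both genotypes.

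For sodium absorption, 0 of 14 members were called by edgeR, and 0 by DESeq2 and in the authors' deposited table. At an unadjusted p under 0.05 there were 3 of 14, beside 18.7% of all genes tested. All 3 were fitted lower in Lingo2-/-: Scnn1b, Atp1b3 and Slc9a2. Of the 14, 5 were fitted above 0 and 9 below, with a median log2 fold change of -0.06, beside 0.001 for all genes tested. In 13 of the 14 the 95% interval of the fold lay between 0.5 and 2. The exception was Scnn1g, which had the fewest reads of the group.

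None of the Slc9a exchangers was called. Slc9a3 was at 158, 131 and 219 CPM in wild type and at 172, 170 and 161 CPM in Lingo2-/- libraries. The Lingo2-/- values sat inside the wild type range. The log2 fold change was -0.02 ± 0.16 (edgeR adjusted p = 0.971), with a fold interval of 0.767 to 1.28. Slc9a2 was at 378, 278 and 341 CPM and at 268, 264 and 292 CPM. Of the wild type values, replicate 2 alone reached into the Lingo2-/- range. This gave a log2 fold change of -0.27 ± 0.12, with an edgeR adjusted p of 0.259. Slc9a8, an exchanger of the Golgi and the apical membrane, had a log2 fold change of 0.09 ± 0.10. Slc9a5 had a mean of 6.27 ± 0.973 CPM (wild type) and 7.92 ± 0.791 CPM (Lingo2-/-). It was higher in all Lingo2-/- libraries and was not called (log2 fold change 0.34 ± 0.17, edgeR adjusted p = 0.313).

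The 3 subunits of the epithelial sodium channel were far apart in level. In wild type Scnn1a was at 21.2 RPKM, Scnn1b at 2.28 RPKM and Scnn1g at 0.453 RPKM. The RPKM ratio of Scnn1a to Scnn1b was between 6.01 and 12.2 in every library. Scnn1a, the alpha subunit, was at 111, 60.4 and 91.6 CPM in wild type and at 73.0, 71.2 and 81.6 CPM in Lingo2-/-. The Lingo2-/- libraries lay within the wild type range, and the log2 fold change was -0.22 ± 0.21 (edgeR adjusted p = 0.622). Scnn1b was at 6.71, 6.41 and 4.89 CPM in wild type and at 4.89, 3.86 and 4.27 CPM in Lingo2-/-. Wild type replicate 3 and Lingo2-/- replicate 1 were equal to 3 digits, and the other Lingo2-/- values were below every wild type value. This gave a log2 fold change of -0.45 ± 0.19, with an edgeR adjusted p of 0.233. Scnn1g rested on 57, 8 and 27 reads in wild type and 45, 14 and 24 reads in Lingo2-/- libraries. These gave 2.62, 0.298 and 1.15 CPM against 3.10, 1.74 and 2.77 CPM. The values overlapped, and the fold interval of 0.634 to 6.08 leaves its direction unsettled.

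Both beta subunits of the sodium pump were fitted lower in Lingo2-/- and were not called. Atp1b1 was at 554, 371 and 450 CPM in wild type and at 362, 357 and 403 CPM in Lingo2-/-. These ranges overlapped, at a log2 fold change of -0.29 ± 0.14. Exons of Atp1b1 overlap those of Nme7 on the other strand by 575 bases, and the strand setting of the counting is not given. Atp1b3, the other beta subunit, was at 27.1, 27.9 and 27.0 CPM and at 22.7, 19.7 and 26 CPM. All its Lingo2-/- values were below all its wild type values, at -0.26 ± 0.11 (edgeR adjusted p = 0.228). The fitted falls moved both ways with the wild type library left out. Without wild type replicate 1, Atp1b1 stood at -0.14 (edgeR adjusted p = 0.656), Scnn1a at -0.016 (0.977) and Slc9a2 at -0.17 (0.537). Without wild type replicate 2 they stood at -0.43 (0.138), -0.43 (0.0908) and -0.39 (0.122), and none was called in either case.

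**Figure D2:**
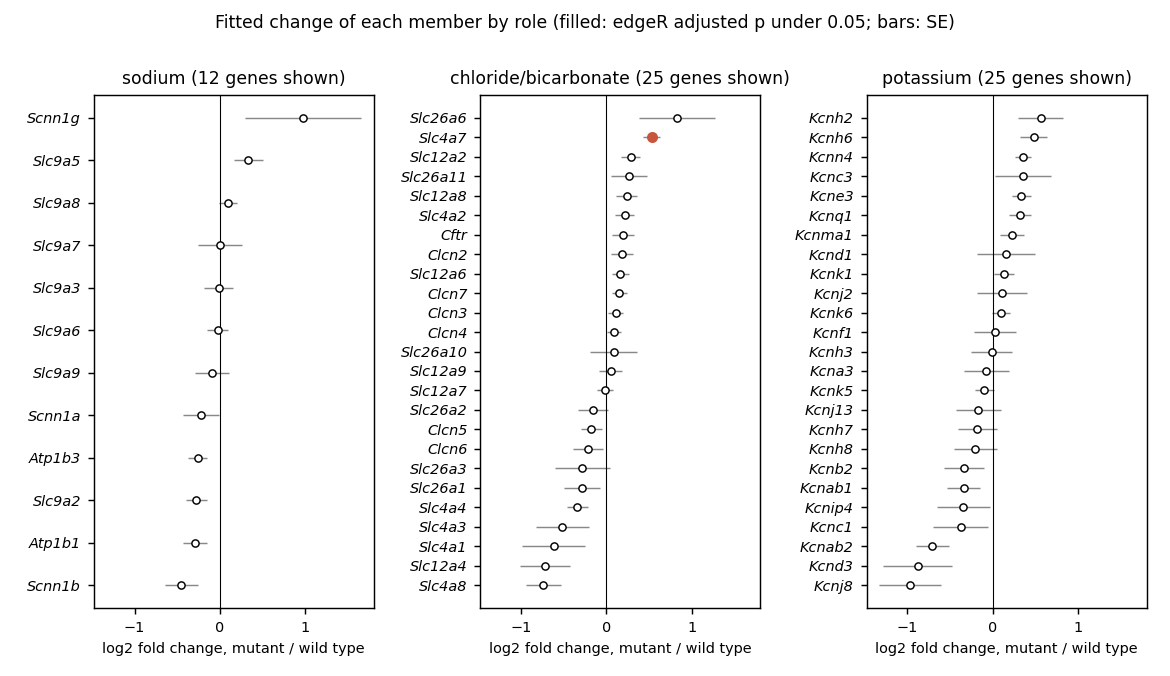
Log2 fold change of Lingo2-/- over wild type for 12 of the 14 sodium, 25 chloride and bicarbonate and 25 potassium members, with error bars of 1 SE from edgeR. Slc4a7, at 0.53 ± 0.10, is the only filled point, which marks an adjusted p under 0.05.

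For chloride and bicarbonate, 1 of 25 members was called by edgeR, Slc4a7, and 1 by DESeq2 and in the authors' deposited table. At an unadjusted p under 0.05 there were 5 of 25, 2 fitted higher and 3 fitted lower, beside 18.7% of all genes tested. The group held 14 members fitted above 0 and 11 below, with a median log2 fold change of 0.09. In 19 of the 25 the 95% interval of the fold lay between 0.5 and 2.

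The sodium bicarbonate transporters were fitted on both sides of 0. Slc4a4, the electrogenic cotransporter, was at 98, 73.8 and 74.0 CPM in wild type and at 69.1, 58.1 and 66.4 CPM in Lingo2-/-. All Lingo2-/- libraries lay below all wild type libraries, at a log2 fold change of -0.34 ± 0.12, and the gene was not called (edgeR adjusted p = 0.161). Within each library the RPKM ratio of Slc4a7 to Slc4a4 was 0.628, 0.783 and 0.829 in wild type and 1.16, 1.43 and 1.47 in Lingo2-/- replicates 1 to 3. Slc4a4 was thus the higher of the pair per length in each wild type library and Slc4a7 in each Lingo2-/- library. This order rests on the exon lengths used, 15205 bases for Slc4a7 and 10815 bases for Slc4a4. In CPM, Slc4a7 was already above Slc4a4 in wild type replicates 2 (81.2 against 73.8) and 3 (86.2 against 74.0). Since Slc4a7 was selected for its rise, the RPKM ratio is a description. The anion exchangers of the family had values on both sides of 0. Slc4a2, a basolateral chloride-bicarbonate exchanger, had a log2 fold change of 0.21 ± 0.11 from 151 ± 17.5 CPM in wild type. Its exons overlap those of Fastk on the other strand, and the strand setting of the counting is not given. Slc4a3 was at 4.48 ± 1.48 CPM with -0.52 ± 0.31, and Slc4a1, the red cell anion exchanger, was at 1.52 ± 0.490 CPM with -0.62 ± 0.37. The markers of red cells, a list that includes Slc4a1, had a median log2 fold change of -0.71, and their part in the Slc4a1 value was not tested.

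Apical chloride-bicarbonate exchange varied widely between libraries. Slc26a3 was at 998, 481 and 1082 CPM in wild type and at 813, 542 and 750 CPM in Lingo2-/-. Replicate 2 was the lowest of its genotype in both, and the ranges overlapped. The log2 fold change was -0.28 ± 0.32 (edgeR adjusted p = 0.686) with a fold interval of 0.483 to 1.40, so a change within those bounds could not be shown with this spread. Leaving out 1 library moved it from -0.57 without wild type replicate 2 (edgeR adjusted p = 0.129) to -0.077 without wild type replicate 3 (0.923). Slc26a2 was at 776, 507 and 678 CPM and at 703, 498 and 560 CPM, with replicate 2 again the lowest in both genotypes. Its log2 fold change was -0.15 ± 0.17. Slc26a6, an exchanger of chloride with bicarbonate or oxalate, was at 3.95, 4.02 and 6.93 CPM in wild type and at 5.09, 14.9 and 7.28 CPM in Lingo2-/-. A single library, Lingo2-/- replicate 2, stood far above the rest, and the log2 fold change was 0.83 ± 0.44 (edgeR adjusted p = 0.379).

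Slc12a2, Cftr, Clcn2 and Clcn3 were fitted above 0 and not called. Slc12a2, the cotransporter that loads chloride, was at 162, 173 and 156 CPM in wild type and at 172, 197 and 228 CPM in Lingo2-/-. The ranges met only between 172 and 173 CPM, at a log2 fold change of 0.28 ± 0.11 (edgeR adjusted p = 0.206). Cftr, the apical chloride channel, was at 74.4, 70.9 and 88.3 CPM and at 92.0, 72.4 and 102 CPM, with overlap, at 0.19 ± 0.13 (0.459). Clcn2 was at 159 ± 28.8 CPM and 180 ± 14.2 CPM, with overlap, at 0.18 ± 0.13. Clcn3, an endosomal chloride-proton exchanger, was at 110 ± 3.02 CPM and 119 ± 3.83 CPM without overlap, at 0.11 ± 0.08. Among the 6 Clcn members, 4 were fitted above 0 and 2 below. Of the potassium chloride cotransporters, Slc12a7 had a log2 fold change of -0.02 ± 0.09. Slc12a4 was at 6.34, 6.78 and 3.40 CPM and at 2.62, 4.36 and 3.35 CPM, at -0.72 ± 0.29 (edgeR adjusted p = 0.220). Its wild type replicate 3 lay among the Lingo2-/- values.

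For potassium, 0 of 25 members were called by edgeR, 0 by DESeq2 and 0 in the authors' deposited table. At an unadjusted p under 0.05 there were 6 of 25, 4 fitted higher and 2 fitted lower, beside 18.7% of all genes tested. The median log2 fold change was -0.01, with 12 above 0 and 13 below, and the range was -0.97 to 0.56. In 18 of the 25 the 95% interval of the fold lay between 0.5 and 2.

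Kcnn4, Kcne3, Kcnq1 and Kcnma1 were fitted above 0 and not called. Kcnn4, the calcium-activated potassium channel of intermediate conductance, was at 16.3, 16.5 and 17.4 CPM in wild type and at 20.4, 21.9 and 21.9 CPM in Lingo2-/-. The groups were tight and did not overlap. The log2 fold change was 0.35 ± 0.10, and the edgeR adjusted p of 0.0843 missed the threshold. Kcne3, the subunit that holds Kcnq1 open, was at 82.9, 68.9 and 75.6 CPM and at 107, 84.6 and 95.1 CPM. These too did not overlap, at 0.34 ± 0.11 (edgeR adjusted p = 0.121). Kcnq1 was at 27.2, 34.0 and 34.2 CPM and at 33.9, 38.5 and 47.4 CPM, with a small overlap, at 0.32 ± 0.13 (0.229). Kcne3 exceeded Kcnq1 per length in each library, by a ratio of 4.62 to 7.24 in RPKM. Exons of Kcnq1 overlap Kcnq1ot1 on the other strand, and Kcnq1ot1 had a log2 fold change of 0.18 ± 0.13. Kcnma1, the large-conductance channel of apical potassium secretion, was at 23.7 ± 2.96 CPM and 27.8 ± 4.97 CPM, at 0.22 ± 0.14 (0.427).

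The two-pore channels, which carry background potassium currents, lay close to 0. Kcnk1, Kcnk5 and Kcnk6 had log2 fold changes of 0.13 ± 0.12, -0.10 ± 0.11 and 0.09 ± 0.11. Of the voltage-gated channels, Kcnh6 was at 5.60, 6.48 and 6.46 CPM in wild type and at 8.47, 9.83 and 7.62 CPM in Lingo2-/-, without overlap, at 0.48 ± 0.16 (edgeR adjusted p = 0.129). Kcnh2 was at 2.36 ± 0.728 CPM and 3.56 ± 0.596 CPM, at 0.56 ± 0.26 (0.275). Kcnab2, a cytoplasmic beta subunit, was at 6.2, 6.89 and 6.55 CPM and at 4.41, 4.61 and 2.89 CPM. All Lingo2-/- libraries lay below all wild type libraries, at -0.71 ± 0.19, and the gene was not called (edgeR adjusted p = 0.0752). Kcnab1, of the same family, had -0.34 ± 0.19. Kcnd3, a channel of transient outward current, was at 8.31, 7.22 and 3.15 CPM and at 2.41, 4.61 and 3.47 CPM, at -0.88 ± 0.40 (0.295). Wild type replicate 3 fell within the Lingo2-/- values. Kcna3, a channel of T cells, was at 2.27 ± 0.589 CPM and 2.16 ± 0.102 CPM, at -0.08 ± 0.27. All 18 T cell and intraepithelial lymphocyte markers were fitted below 0, at a median log2 fold change of -1.56. Of these, 16 were called lower by edgeR, beside 1.52% of all genes tested. These markers summed to 389 to 452 CPM in wild type and to 114 to 149 CPM in Lingo2-/-. Their part in the values of Kcna3 and Kcnab2 was not tested.

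**Figure D3:**
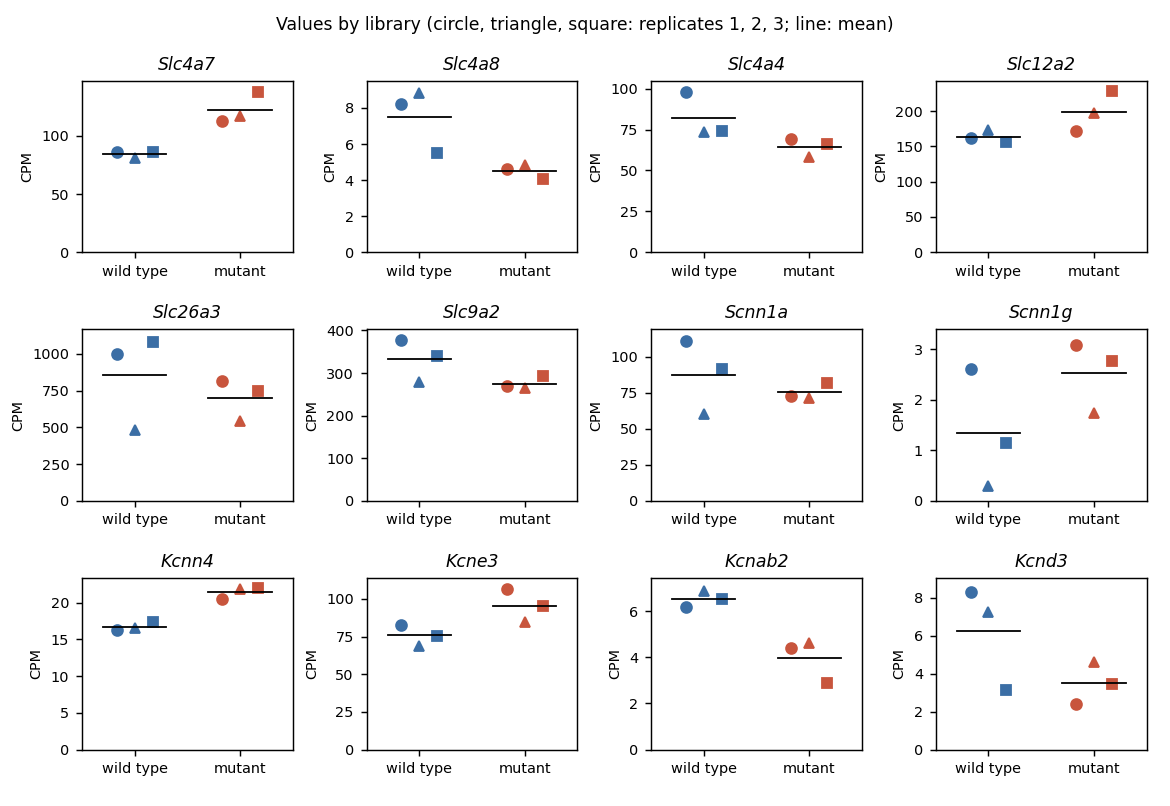
CPM in each of the 3 wild type and 3 Lingo2-/- libraries for 12 members, 1 panel each with its own axis. Slc4a7, Kcnn4 and Kcne3 are separated upward in Lingo2-/-, Slc4a8, Slc4a4 and Kcnab2 downward, and Slc26a3, Scnn1a and Kcnd3 overlap.

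Set side by side, the groups held 0 of 14, 1 of 25 and 0 of 25 called members, against 2.57% of all genes tested. At an unadjusted p under 0.05 there were 14 of 67 members, or 20.9%, beside 18.7% of all genes tested. Members with no overlap between genotypes numbered 8 higher in Lingo2-/- (11.9%) and 6 lower (8.96%), beside 12.3% and 11.8% of all genes tested. These shares are near the background. The median size of the log2 fold change was 0.215 over the members and 0.186 over all genes tested, and 56 of 67 members were within 0.5 of 0. In 53 of the 67 the 95% interval of the fold lay between 0.5 and 2. For 32 members with a mean log2 CPM of at least 4 the median log2 fold change was 0.095, and for the 35 below that level it was -0.16. The same split of all genes tested gave -0.002 and 0.004. The members took 0.791% to 0.979% of the reads outside the mitochondrial genome in wild type and 0.821% to 0.936% in Lingo2-/- libraries, so the ranges overlapped.

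The highest members reported singly shared a pattern across libraries, which was chosen after their values were seen. Of the 10 highest, 9 had their lowest wild type value in replicate 2, the exception being Slc4a2, and 7 of 10 their lowest Lingo2-/- value in replicate 2. Over all 67 members, 26 had their lowest wild type value in replicate 2. Replicate 2 was the lowest of both genotypes in 14 of the 65 members reported singly. Among the 9 colonocyte markers that are not members, such as Car4, Aqp8 and Krt20, 8 were lowest of wild type in replicate 2 and 7 lowest of Lingo2-/- in replicate 2. These 9 summed to 6864, 5874 and 6578 CPM in wild type and 5710, 4285 and 5035 CPM in Lingo2-/- libraries. With Slc26a3 included, all 10 colonocyte markers had a fitted log2 fold change below 0 (median -0.31), and 0 were called by edgeR, with 3 at an unadjusted p under 0.05. The part of colonocyte content in the values of the high members was not tested.

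Of the lower members, 6 were lowest of wild type in replicate 3 and highest of Lingo2-/- in replicate 2: Slc12a4, Slc4a3, Slc4a8, Kcnc1, Kcnd3 and Kcnj8. All 6 had a fitted log2 fold change below 0. Kcnj8, an ATP-sensitive potassium channel subunit known from vascular mural cells, was at 2.80, 2.35 and 1.23 CPM and at 1.17, 1.24 and 0.809 CPM, at -0.97 ± 0.36 (edgeR adjusted p = 0.182). All 8 fibroblast markers were lowest of wild type in replicate 3, and 7 were highest of Lingo2-/- in replicate 2. They summed to 987, 890 and 336 CPM in wild type and to 228, 501 and 291 CPM in Lingo2-/-. All 8 were fitted below 0, with a median log2 fold change of -1.32, and 1 of them, Mfap5, was called lower. Without wild type replicate 3, 674 of 16057 genes tested were called, or 4.2%, and 5 of the 67 members: Slc4a7 with Slc12a4 at -0.97, Slc4a8 at -0.92, Kcnj8 at -1.24 and Kcnd3 at -1.20 (edgeR adjusted p = 0.0405, 0.0170, 0.0446 and 0.0215). Calls thus rose over the whole table under this setting. The 6 members above were picked after their values were seen, in part for a low wild type replicate 3. Deeper falls without that library follow from this choice, so they are a description only. The part of fibroblast content in these values was not tested.

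**Figure D4:**
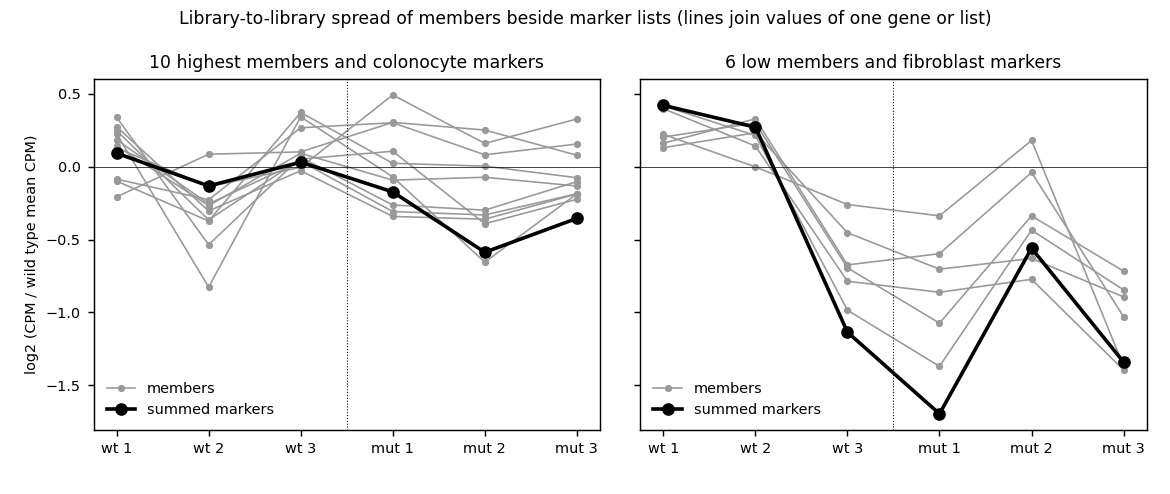
Log2 of CPM over the wild type mean in each library, on the left for the 10 highest members with the summed colonocyte markers and on the right for 6 lower members with the summed fibroblast markers. On the left wild type replicate 2 is the lowest wild type library for 9 of the 10 members, and on the right wild type replicate 3 is the lowest for all 6. The 6 were picked for this pattern after their values were seen.

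Some markers of goblet and crypt base cells rose in Lingo2-/-. Of 11 goblet markers, 9 were fitted above 0 and 2 below (median 0.84), and 3 were called higher: Spdef, Spink4 and Atoh1. The goblet list summed to 13685 to 16562 CPM in wild type and 17099 to 24618 CPM in Lingo2-/-. Of 9 crypt base markers, 8 were fitted above 0 and 1 below (median 0.60), and 3 were called higher: Sox9, Myc and Rgmb. The crypt base list summed to 170 to 179 CPM in wild type and 209 to 256 CPM in Lingo2-/-. Slc12a2 and Cftr are known to be higher in crypt cells than at the surface. The part of crypt and goblet content in the values of Slc4a7 and of the secretory members was not tested.

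The proteins that regulate or accompany these transporters were described from lists chosen by function, with 69 genes tested. Of these 1.45% were called, beside 2.57% of all genes tested, and 18 (26.1%) had an unadjusted p under 0.05, beside 18.7%. The gene called was Fxyd5, a small membrane protein that modulates the sodium pump, which fell from 11.1 ± 1.40 CPM to 5.31 ± 1.49 CPM (log2 fold change -1.03 ± 0.19, edgeR adjusted p = 0.0160). It was at 9.51, 12.0 and 11.9 CPM in wild type and at 6.88, 5.10 and 3.93 CPM in Lingo2-/-, without overlap. T cell and fibroblast markers were also lower in Lingo2-/-, as given above, and their part in the Fxyd5 value was not tested. By edgeR, 0 of 12 genes of aldosterone and sodium channel control, 0 of 7 exchanger scaffolds and 0 of 9 genes of the WNK kinase pathway were called, with 2, 0 and 3 at an unadjusted p under 0.05. Wnk4, a kinase that acts on Slc12a cotransporters, had a log2 fold change of 0.43 ± 0.12 with an edgeR adjusted p of 0.0766. Of 10 genes of cyclic nucleotide control of secretion 0 were called and 4 had an unadjusted p under 0.05. Among these Guca2b, the hormone uroguanylin that acts through cyclic GMP, had 0.87 ± 0.23 (0.0738). Of 15 other chloride channel genes 0 were called and 5 had an unadjusted p under 0.05. Clca1, a secreted goblet cell protein that is also in the goblet list, had 1.13 ± 0.33 (0.129). Of 10 other sodium-coupled transporters 0 were called and 2 had an unadjusted p under 0.05.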

How the data were processed

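Total RNA of the colon epithelial fraction was sequenced in 6 libraries made with a stranded kit that depletes ribosomal RNA, per the labels. The submitters' processing notes name Trimmomatic 0.39, STAR, HTSeq, DESeq2 and build GRCm38. For the annotation release and the strand setting, the sources used here give nothing. Of the members, 23 overlap exons of a gene on the other strand, among them Atp1b1, Clcn2 and Kcnma1, and are uncertain for that reason. The overlap ranged from 1 base in Kcnh3 to 1242 bases in Slc4a2, so this uncertainty is not equal among them. Raw read counts for each gene and library were deposited, and the counting tool's summary lines were left out. The authors' deposited comparison gives normalized signal per library, a mean signal, log2 fold changes with standard errors, a test score and p-values.

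From the counts, edgeR 4.0.16 (R 4.3.3) was run with filterByExpr, TMM factors and the robust quasi-likelihood test for genotype. It tested 16757 genes, with the Benjamini-Hochberg adjustment and a threshold of 0.05. CPM uses TMM-adjusted library sizes, and RPKM adds the exon length of GENCODE M21 (GRCm38). Intervals of folds are 95%, and SDs are over 3 libraries. A count of 0 allows 3 reads, or 0.112 to 0.138 CPM in wild type and 0.207 to 0.373 CPM in Lingo2-/- libraries, for counting error only. No replicate pair agreed within sampling noise (chi-square per degree of freedom 8.48 to 22.0). The fit was checked on simulated counts with 200 changed genes. It called 53% of the 2-fold and 91% of the 4-fold changes, at 100 genes each, with 17 false calls. In that simulated set the false share of the calls was above the threshold of 0.05. Smaller changes were not simulated, so a gene that was not called may still differ. Alternatives were DESeq2 1.42.0, other scalings, filters, a replicate block, no mitochondrial genes and each library left out.

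The members and gene lists were chosen with earlier results of these data known. Of the 67 members, 2 are counted in every group total and median and are not reported singly here. Named are 30 core colon transporters, called members, the 3 largest rises and falls per group at a mean log2 CPM of at least 1, the 10 highest of the other 65 in RPKM and called partner genes. Other genes were chosen after their values were seen.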

Additional observations from a re-analysis of the deposited data

How the results depend on the processing

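The call of Slc4a7 held under each scaling, filter and test tried with all 6 libraries, with log2 fold changes of 0.51 to 0.53. Of the 37 named members, 33 kept their direction under all 13 alternatives. Replicate numbers did not pair the libraries (same-number correlations of -0.13, 0.13 and -0.02). With the replicate block Slc4a7 had 0.53 (edgeR adjusted p = 0.0364), and Slc9a3 was at 0.017, on the other side of 0. Without a filter, 1493 genes and 7 members were called, 4 for chloride and bicarbonate and 3 for potassium. With the filter, 430 genes and 1 member were called, so the calls rose over the whole table. DESeq2 called 655 genes, and the number of members stayed at 1. Leaving out 1 library gave 174 to 674 genes, 0 to 5 members, 0 to 3 for chloride and bicarbonate, 0 to 2 for potassium and 0 for sodium. Without Lingo2-/- replicate 2 or 3, 174 and 180 genes and 0 members were called, and without wild type replicate 3, 674 genes and 5 members. The medians then ranged from -0.054 to 0.0090 over all members, -0.13 to -0.050 for sodium, -0.015 to 0.095 for chloride and bicarbonate and -0.11 to 0.0090 for potassium. Signs changed within the same ranges for Slc9a3 (-0.17 to 0.21), Slc12a7 (-0.072 to 0.038), Kcna3 (-0.27 to 0.065) and Slc9a8 (-0.0068 to 0.17). The cause of these shifts was not tested.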
